A study of Mus musculus with 28 samples.

Results

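The Hox genes of the 4 mouse clusters were followed in mesodermal cultures derived from embryonic stem cells (ESCs), through lists of regions enriched for H3K27me3, Suz12, H3K27ac and Brg1-FLAG. A list of 38 Hox genes was looked up by symbol in the mm9 annotation, and all 38 were found among 22232 protein-coding genes. They comprise 10 Hoxa, 10 Hoxb, 9 Hoxc and 9 Hoxd genes. The list was chosen by name and not by any measured value, but with earlier results of these data known.

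Hox genes encode homeodomain transcription factors that specify position along the head-to-tail axis. Within each cluster the genes lie in the order of their use, with 3′ genes activated early and in anterior tissue and 5′ genes late and in posterior tissue. Before activation the clusters are textbook targets of Polycomb repressive complex 2 (PRC2), whose subunit Suz12 is needed for trimethylation of lysine 27 of histone H3 (H3K27me3). Acetylation of the same lysine (H3K27ac) marks active promoters and enhancers and cannot occupy the same residue as methylation. Brg1 is the ATPase of the BAF chromatin remodeling complex.

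All samples were day 4 cultures whose cells carry floxed Brg1 alleles and Actin-CreER, a Cre recombinase that a ubiquitous promoter drives and that tamoxifen activates. Mesoderm was induced for 40 h with VEGF, Activin A and BMP4. Control cultures received the solvent tetrahydrofuran (THF) and Brg1-deleted cultures 200 nM 4-hydroxytamoxifen (4-OHT) in THF, so that the 4-OHT groups differ from controls in both the drug and the deletion. There were 3 control and 3 4-OHT libraries for H3K27me3, 2 and 2 for Suz12, 2 and 2 for H3K27ac, and 3 Brg1-FLAG libraries in a single condition, with 11 inputs used by the authors in calling. The labels give the FLAG cells as Brg1f/f; Actin-CreER in 3 replicates, whereas the study's methods describe Brg1-FLAG ESCs in duplicate. The study's methods call the replicates biological, and neither they nor the labels say what same-numbered libraries share.

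The measure throughout is covered length, the number of bases that the regions of a library cover in a window of 5 kb on each side of a start site (10 kb in all) or along a cluster. The lists hold positions without scores or counts, so read depth is unknown and a weakly enriched base cannot be told from an unmarked one. The loss of Brg1 itself cannot be checked in these lists. Libraries numbered 1 for H3K27me3 stood apart, with a median region width of 250 bp in both conditions against 350 to 425 bp in the others, and FLAG replicate 3 listed 192 regions against 8021 and 8257. Of 6 mesoderm markers, 5 had H3K27ac at the start site in both control libraries, as did 3 of 3 pluripotent cell markers, 1 of 2 cardiac, 0 of 2 endoderm and 0 of 2 annotated neural markers. Windows of neighbouring Hox genes overlapped in 14 of 34 neighbouring pairs, so the genes are not independent of one another.

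In control cultures H3K27me3 formed broad domains over all 4 clusters, and Suz12 lay within them in blocks, as the maps of enriched regions along the clusters show. H3K27me3 was present in the window of all 38 genes in each of the 6 libraries, whereas 11.5% of all genes had it in every control library. Suz12 was present at all 38 in each of its 4 libraries, against 5.86% of all genes in both control libraries. Hox genes accounted for 39.7% and 40.0% of all windows that H3K27me3 covered completely in control replicates 2 and 3.

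**Figure D1:**
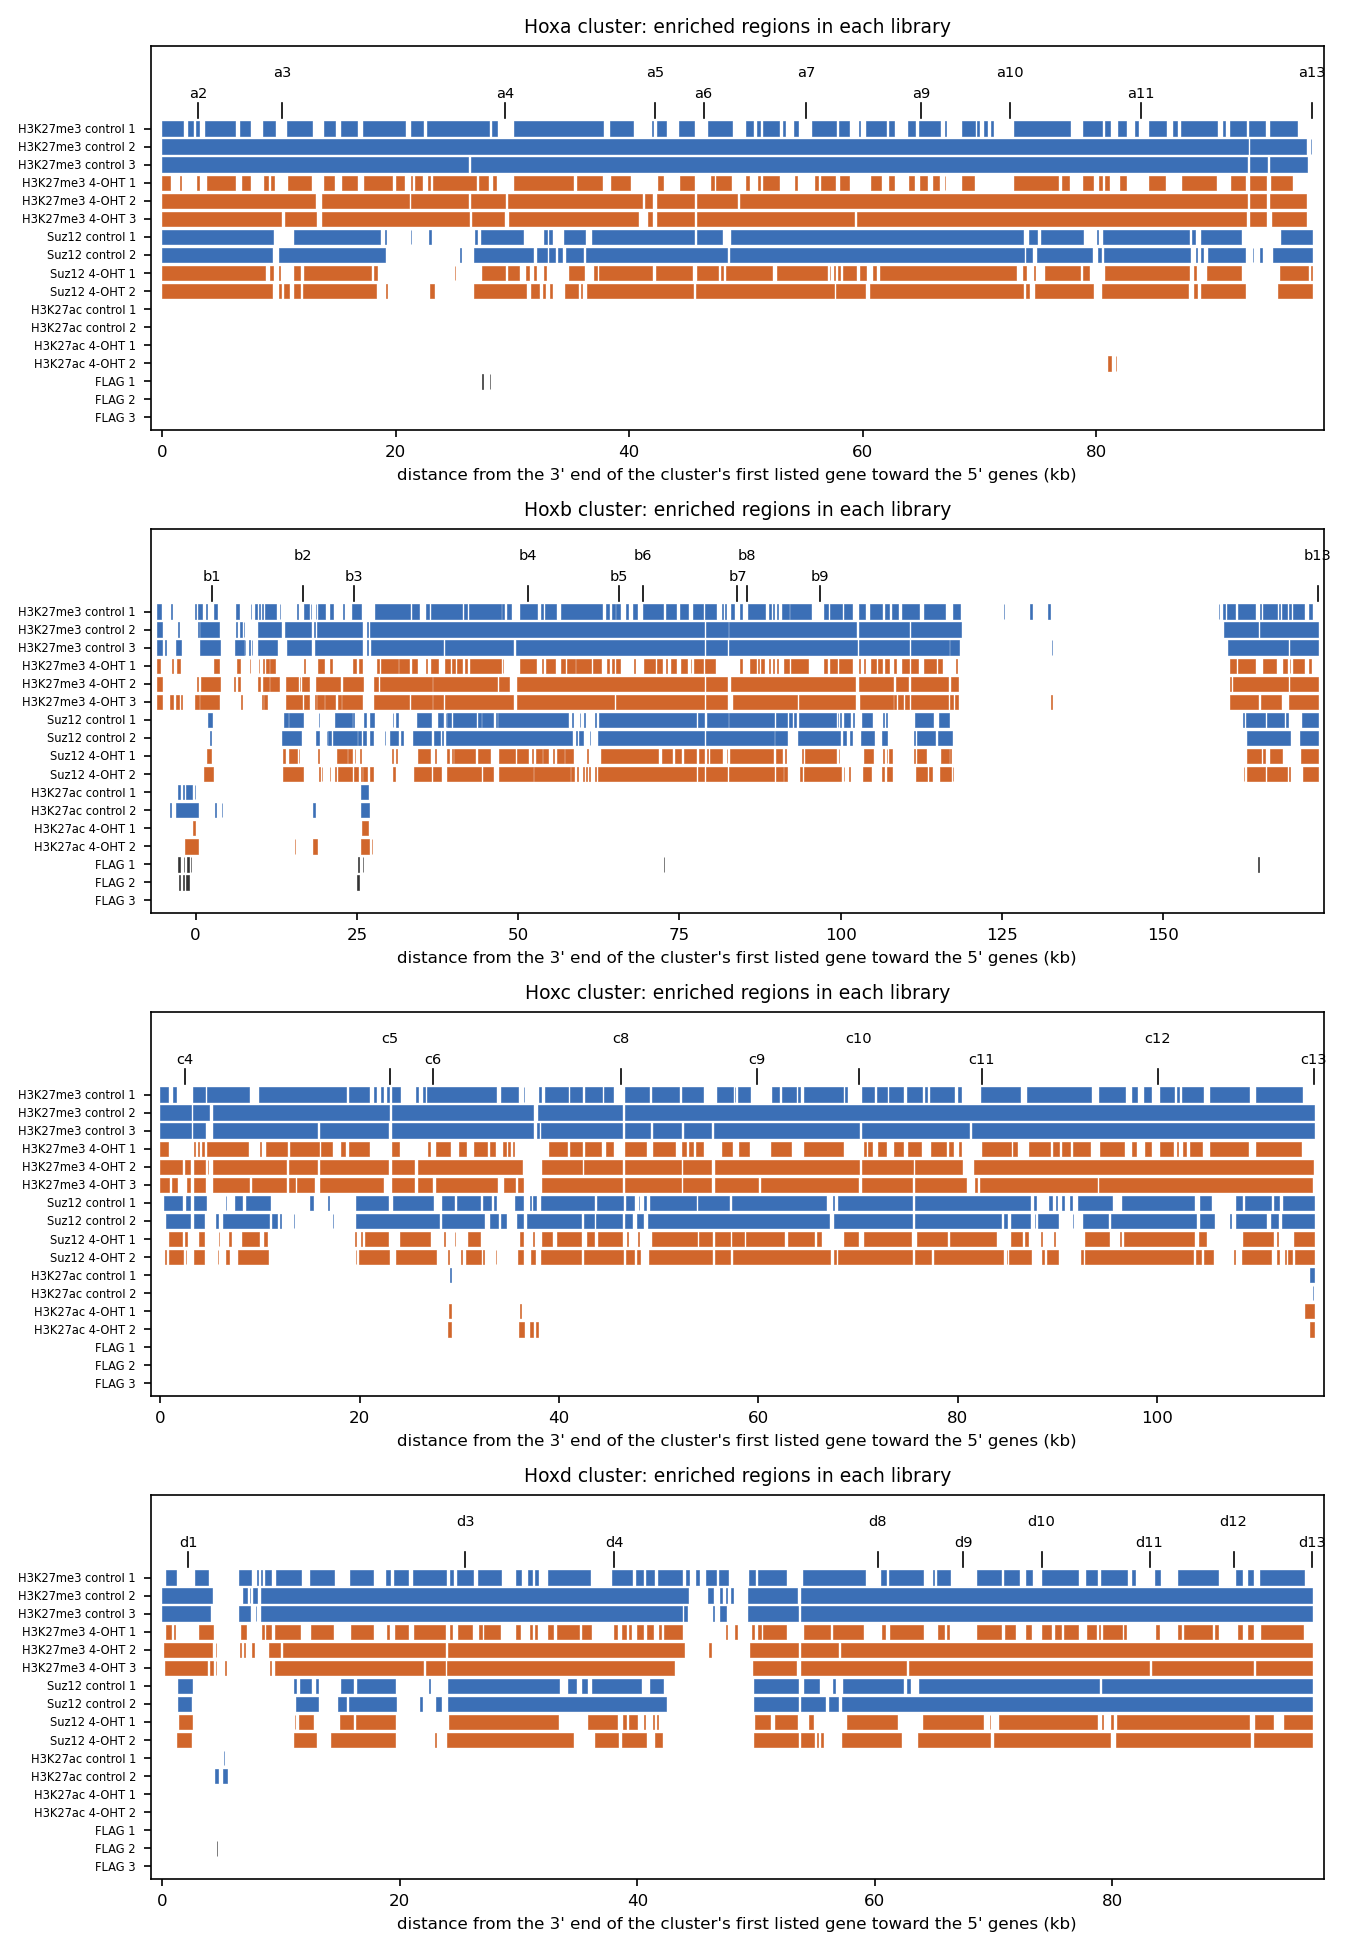
Enriched regions of each library along the 4 Hox clusters, with distance in kb from the 3′ end of the first listed gene on the x axis and 1 row per library (control blue, 4-OHT orange, Brg1-FLAG black). Ticks above mark start sites. In control replicates 2 and 3 H3K27me3 fills the clusters apart from the stretch between Hoxb9 and Hoxb13 and the 3′ parts of Hoxb and Hoxd, Suz12 leaves further gaps such as those on the 3′ side of Hoxa4 and Hoxc5, and H3K27ac and FLAG occupy short stretches.

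The Hoxa cluster spans chr6:52112350-52210874 (mm9, minus strand, 98.5 kb from Hoxa2 to Hoxa13). H3K27me3 covered 66.6%, 99.3% and 98.7% of it in control replicates 1, 2 and 3, and Suz12 78.3% and 85.4%. Hoxc, at chr15:102751534-102867274 (115.7 kb), had 73.0%, 98.6% and 96.5% under H3K27me3 and 73.1% and 80.0% under Suz12. Hoxd, at chr2:74506367-74603200 (96.8 kb), had 62.5%, 91.8% and 91.2% under H3K27me3 and 68.1% and 75.1% under Suz12. Coverage was lowest over Hoxb, at chr11:96055630-96229570 (173.9 kb), with 48.3%, 70.7% and 69.7% under H3K27me3 and 44.8% and 50.6% under Suz12. Of the Suz12 bases in the clusters, 98.7% and 98.4% lay inside H3K27me3 of at least 2 control libraries, and they made up 71.8% and 79.0% of those H3K27me3 bases. By this measure the H3K27me3 domains extended beyond the Suz12 regions of both control libraries. Taken singly, control replicates 1, 2 and 3 had 294.6, 423.9 and 418.5 kb of H3K27me3 in the clusters, against 305.6 and 337.4 kb of Suz12. Replicate 1 of H3K27me3 thus covered less than Suz12.

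The H3K27me3 domains were nearly unbroken over Hoxa and Hoxc in control replicates 2 and 3. Counting stretches of at least 500 bp without H3K27me3, Hoxa had 25, 0 and 0 such gaps in control replicates 1, 2 and 3, and Hoxc had 21, 0 and 1. Hoxd had 25, 4 and 4 gaps and Hoxb 45, 7 and 10. Of the gaps that no H3K27me3 library of either condition filled, 9 lay in Hoxb and 5 in Hoxd. Of these, 5 lay between Hoxb13 and Hoxb9, the widest being the 25.9 kb stretch chr11:96070926-96096775, which is intergenic and carried neither Suz12 nor H3K27ac in any library. The 9 others were 0.575 to 2.25 kb wide and lay toward the 3′ ends, at Hoxb3, Hoxb2 and Hoxb1, in the long transcript unit of Hoxd3 upstream of Hoxd4, and upstream of Hoxd1.

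The genes with the least H3K27me3 and Suz12 were the 3′ genes Hoxb1 and Hoxd1, both of the first paralog group. Hoxb1, which specifies identity in the hindbrain, had 1.93, 3.55 and 4.74 kb of H3K27me3 in control replicates 1, 2 and 3 and 0.550 and 0.225 kb of Suz12. Hoxd1 had 3.49, 5.05 and 5.46 kb of H3K27me3 and 1.2 and 1.13 kb of Suz12. Their neighbours Hoxb2 and Hoxb3 followed, with 3.55, 8.63 and 7.88 kb of H3K27me3 at Hoxb2 and 4.35, 8.85 and 8.78 kb at Hoxb3. Over the same libraries the median of the 38 genes was 6.32, 10.0 and 9.84 kb, so Hoxb1 and Hoxd1 lay below the median in each library. Suz12 was also low at Hoxc4, with 3.50 and 4.78 kb, and at Hoxa4, with 4.23 and 6.83 kb, against a median of 8.22 and 9.37 kb. H3K27me3 at Hoxa4 was high all the same, at 8.28, 10.0 and 9.75 kb. Most other genes were close to full: H3K27me3 covered over 9 kb at 34 and 32 of the 38 genes in control replicates 2 and 3 and at none in replicate 1, and Suz12 at 16 and 22. After 4-OHT these numbers were 30 and 27 for H3K27me3 in replicates 2 and 3 and 2 and 17 for Suz12.

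**Figure D2:**
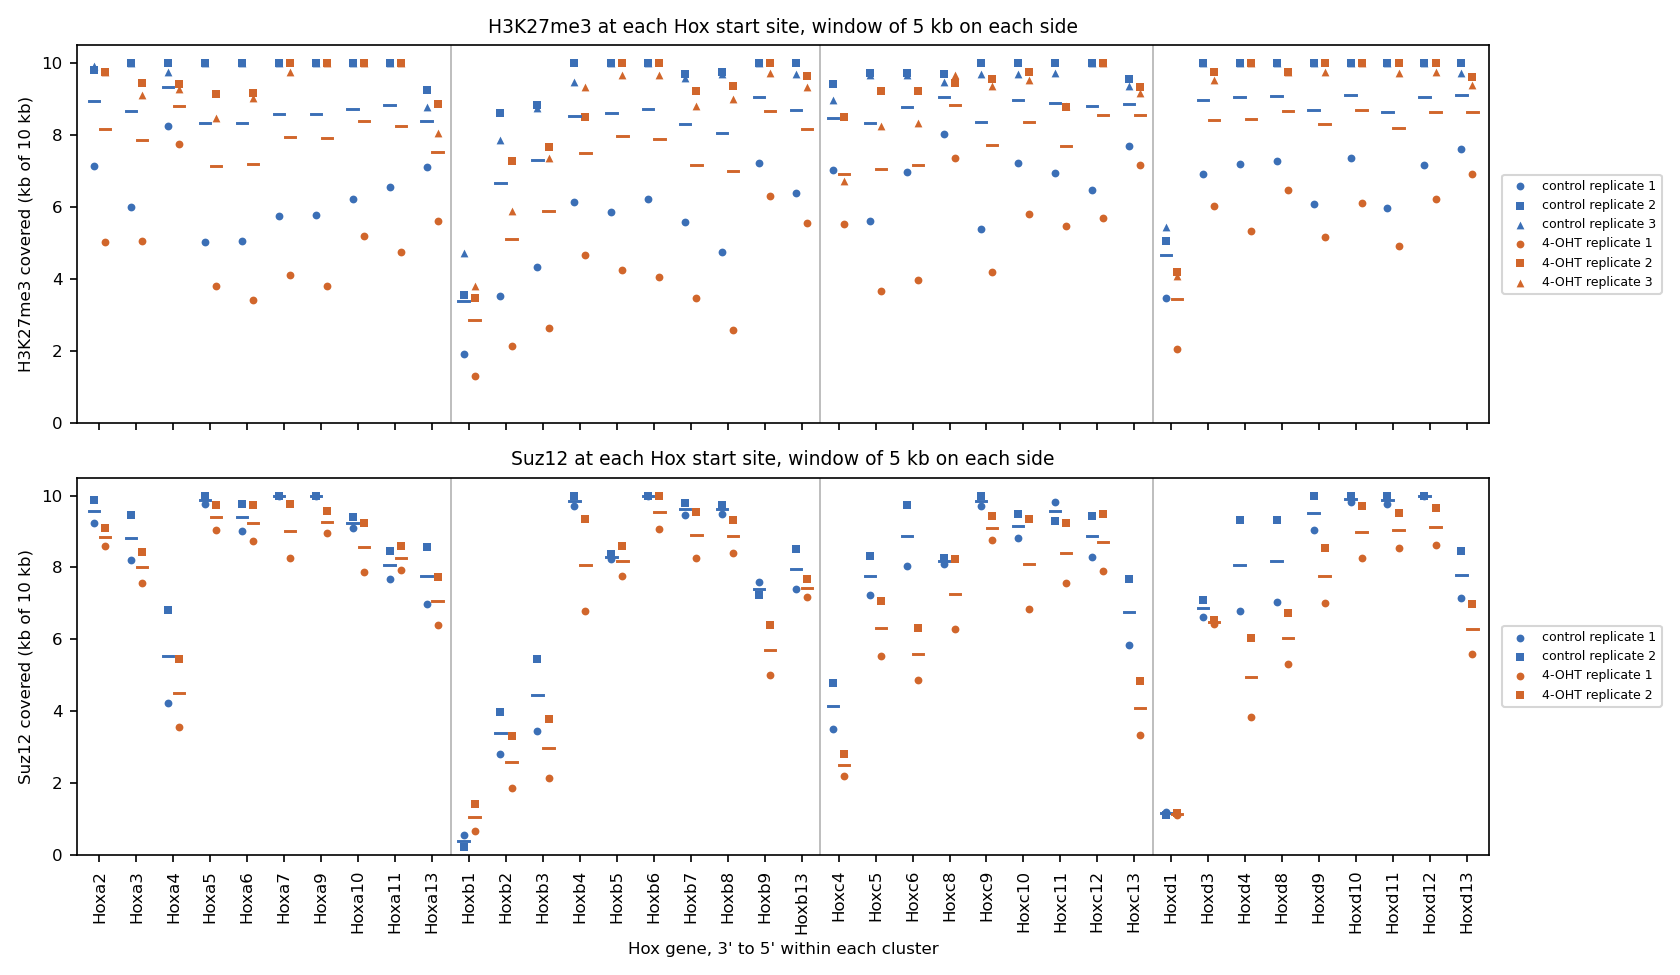
Covered length (kb of the 10-kb window) of H3K27me3 (top) and Suz12 (bottom) at each of the 38 Hox start sites, ordered from 3′ to 5′ within each cluster; points are libraries and short bars are means of 3 or 2 libraries. The replicate 1 libraries of H3K27me3 lie lowest in both conditions, many windows reach the ceiling of 10.0 kb, and Hoxb1 and Hoxd1 lie lowest for both marks.

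Covered length was greater at 5′ than at 3′ genes in Hoxb, Hoxc and Hoxd but not in Hoxa. Across genes, Spearman's rho between position and the control mean of H3K27me3 was 0.745 for Hoxb (10 genes), 0.483 for Hoxc (9 genes), 0.417 for Hoxd (9 genes) and -0.248 for Hoxa (10 genes). For Suz12 it was 0.430, 0.283, 0.633 and -0.146 in the same order. These are descriptions, since the genes share libraries and overlapping windows. At the 5′ ends, H3K27me3 covered 7.13, 9.28 and 8.80 kb at Hoxa13, 6.40, 10.0 and 9.70 kb at Hoxb13, 7.70, 9.58 and 9.38 kb at Hoxc13, and 7.62, 10.0 and 9.73 kb at Hoxd13 in control replicates 1, 2 and 3. These posterior genes therefore resembled one another more than the first listed 3′ genes did, among which Hoxa2 had 7.15, 9.81 and 9.94 kb and Hoxc4 7.05, 9.43 and 8.98 kb.

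The question of the deletion is whether Polycomb domains at developmental regulators depend on Brg1. After 4-OHT, H3K27me3 at the 38 Hox genes was lower in the mean at all 38, against 89.2% of the 4058 windows tested, and lower in all 3 same-numbered pairs at 24, against 43.9%. The median difference between the condition means was -0.630 kb over the 38 genes and -0.274 kb over all windows. No Hox gene passed the test (limma, 0 of 38 called, background 0%; 0 of 38 and 294 of 4058 windows had an unadjusted p below 0.05, and 12 and 1010 with the replicate number as a block), and the conditions overlapped at all 38, against 11.8% of windows without overlap and lower (0 of 38 were higher without overlap, against 0.197%, and 0 of 38 higher in all 3 pairs, against 0.789%). With the replicate number as a block, 0 of 38 were called, against 0.0246% of windows, with limma's adjusted p running from 0.0976 to 0.644. Of the 268 other genes with at least 5 kb covered, 97.8% were lower in the mean, 74.6% in all 3 pairs and 2.24% without overlap, so other wide domains showed the same direction. Their median difference was -0.752 kb, a larger fall than that of the Hox genes. With regions joined across gaps of up to 1 kb, which fills more windows, 3 Hox genes were lower in all 3 pairs, against 1521 of 4058 windows, so that the Hox share then lay below the background.

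The genes with the largest difference of means within their cluster were Hoxc6, Hoxb2, Hoxd1 and Hoxa5. At Hoxc6, H3K27me3 covered 6.99, 9.73 and 9.68 kb in control replicates 1, 2 and 3 (8.80 ± 1.56 kb, SD, n = 3) and 3.97, 9.23 and 8.34 kb after 4-OHT (7.18 ± 2.82 kb). The difference of -1.62 kb had an SE of 1.93 kb, and the spread between libraries was larger than the difference. Hoxb2, which acts with Hoxb1 in the hindbrain, had 2.15, 7.30 and 5.91 kb after 4-OHT, a difference of -1.57 kb with an SE of 1.84 kb. Hoxd1 had 2.05, 4.20 and 4.10 kb (-1.22 kb, SE 0.873 kb), and Hoxa5 had 3.8, 9.15 and 8.48 kb against 5.03, 10.0 and 10.0 kb (-1.2 kb, SE 2.17 kb). All 4 genes were lower in each of the 3 pairs, and in none did the conditions separate, because replicate 1 of both conditions was far below replicates 2 and 3.

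Windows that are full in both libraries of a pair cannot show a difference, and 13 genes in pair 2 and 6 in pair 3 had equal values. The region lists as a whole also covered less after 4-OHT, by ratios of 0.565, 0.817 and 0.760 in pairs 1, 2 and 3, whereas the Hox clusters covered 0.784, 0.951 and 0.934 of control. Scaled to the total of each list, all 38 genes were higher after 4-OHT, with a median of 1.93 kb, while 2463 of 4058 windows were lower. In all 3 pairs 34 Hox genes were higher, against 589 windows, and 22 were higher without overlap, against 196. That scaling multiplies every window of a library by 1 factor, so it makes windows that are full in both libraries higher by construction and restates the ratios of the lists. Leaving out 4-OHT replicate 1 also turned the median, to 0.702 kb. Leaving out replicate 1 of both conditions gave a median of -0.350 kb, with 21 of 38 genes lower without overlap, against 1459 of 3352 windows. Whether the smaller lists come from the chromatin or from the libraries was not tested.

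Over whole clusters the pattern was the same. Hoxa had 65.6, 97.8 and 97.2 kb of H3K27me3 in control replicates 1, 2 and 3 and 52.1, 95 and 93.8 kb after 4-OHT. Hoxb went from 84.1, 123.0 and 121.2 kb to 62.0, 114.5 and 110.3 kb, a ratio of means of 0.873. Hoxc had 84.5, 114.1 and 111.7 kb against 67.8, 107.9 and 103.7 kb, and Hoxd 60.5, 88.9 and 88.3 kb against 49.1, 85.9 and 83.1 kb. Each cluster was lower in 3 of 3 pairs, the condition ranges overlapped, and the exact two-sided permutation test gave p = 0.5 for each (0.75 adjusted over 12 comparisons), where 3 against 3 libraries cannot go below 0.1. The gaps of at least 500 bp summed to 90.01 ± 59.0 kb (SD, n = 3) over the 4 clusters in controls and 122.8 ± 86.7 kb after 4-OHT, a difference that turned to -17.2 kb without 4-OHT replicate 1.

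Suz12 was lower after 4-OHT at 36 of 38 Hox genes in the mean, while over all 2210 windows tested 26.2% were lower. It was lower in both pairs at 32 genes, against 12.3% of windows, and lower without overlap of the conditions at 21, against 5.88%. 1 Hox gene was higher without overlap, against 32.1% of windows, and 2 were higher in both pairs, against 40% of windows. The median difference was -0.838 kb over the Hox genes and 0.113 kb over all windows. Among 155 other genes with at least 5 kb of Suz12, 72.9% were lower in the mean, 52.3% in both pairs and 22.6% without overlap, while 3.23% were higher without overlap and 9.03% higher in both pairs. Their median difference was -0.3 kb. No gene passed limma (0 of 38 called, background 0%), and 2 libraries in each condition leave few degrees of freedom. An unadjusted limma p below 0.05 was found at 4 of 38 Hox genes and 266 of 2210 windows. With the replicate number as a block these counts were 16 and 281. With regions joined across gaps of up to 1 kb, 23 Hox genes were lower in the mean, 14 in both pairs and 8 without overlap. Over all 2210 windows these counts were 549, 236 and 122. In a window of 1 kb on each side the Hox counts were 17, 10 and 6, against 444, 145 and 83 of 1985 windows. The Hox medians were -0.153 kb with joined regions and 0.0 kb in the narrower window. Without 4-OHT replicate 1 the Hox median in the main window was -0.306 kb.

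The 4 Hox genes below that unadjusted threshold without the block were Hoxc6, Hoxc13, Hoxb9 and Hoxc4. At Hoxc6, Suz12 covered 8.05 and 9.73 kb in control replicates 1 and 2 and 4.88 and 6.31 kb after 4-OHT, a difference of -3.29 kb (SE 0.837 kb; limma, adjusted p = 0.328). Hoxc13, the most 5′ gene of its cluster and needed for hair and nail formation, had 5.83 and 7.68 kb against 3.33 and 4.83 kb, a difference of -2.67 kb (SE 0.898 kb; limma, adjusted p = 0.394). Both genes were below both control libraries in each 4-OHT library. Hoxc4 had 3.50 and 4.78 kb against 2.20 and 2.83 kb, and Hoxb9 7.60 and 7.23 kb against 5.00 and 6.40 kb. Hoxd4, named here after its values were seen, had 6.78 and 9.33 kb against 3.86 and 6.03 kb, a difference of -3.11 kb with an SE of 1.24 kb.

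The exceptions, higher in the mean after 4-OHT, were Hoxb1 and Hoxa11 (the latter also named after its values were seen). Suz12 at Hoxb1 covered 0.550 and 0.225 kb in controls and 0.675 and 1.43 kb after 4-OHT, so the conditions did not overlap and the 4-OHT libraries were higher. Hoxa11 had 7.69 and 8.46 kb against 7.93 and 8.59 kb, which overlap. Hoxd1 had 1.2 and 1.13 kb in controls and 1.13 and 1.18 kb after 4-OHT. At the remaining genes given for H3K27me3, Suz12 was lower in both pairs at Hoxa2 (9.24 and 9.89 against 8.61 and 9.11 kb), Hoxa4 (3.58 and 5.45 kb after 4-OHT), Hoxa5 (9.78 and 10.0 against 9.04 and 9.75 kb), Hoxa13 (6.97 and 8.57 against 6.40 and 7.72 kb), Hoxb2 (2.80 and 3.98 against 1.88 and 3.33 kb), Hoxb3 (3.45 and 5.45 against 2.15 and 3.8 kb), Hoxb13 (7.40 and 8.50 against 7.17 and 7.68 kb) and Hoxd13 (7.14 and 8.47 against 5.60 and 6.98 kb). Of these, the conditions did not overlap at Hoxa2, Hoxa5 and Hoxd13.

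**Figure D3:**
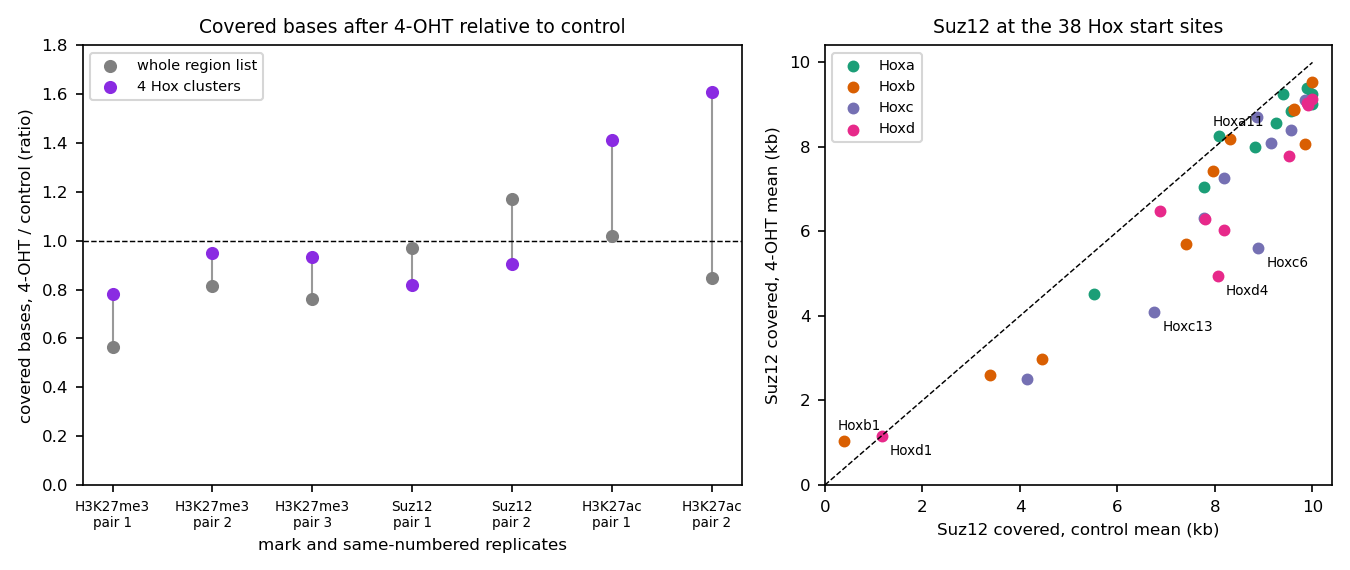
Left, covered bases after 4-OHT divided by covered bases in the same-numbered control library, for the whole region list (grey) and the 4 Hox clusters (violet), with a dashed line at no difference. Right, Suz12 covered length (kb of 10 kb) at the 38 Hox start sites, control mean on the x axis and 4-OHT mean on the y axis, 2 libraries each, with a dashed line of equality. The Hox ratios lie above those of the list for H3K27me3 and H3K27ac and below them for Suz12, and 36 of 38 points lie below the line of equality.

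The Suz12 difference at the Hox clusters did not follow that of the lists. Most other genes with at least 5 kb of Suz12 were also lower in the mean, so this was not seen at Hox genes alone. The lists held 2951 and 2913 regions in control replicates 1 and 2 and 3654 and 4016 after 4-OHT. The lists covered 0.971 and 1.17 times as much after 4-OHT in pairs 1 and 2, whereas the Hox clusters covered 0.821 and 0.907 times. Hoxc had 84.6 and 92.6 kb of Suz12 in controls and 64.4 and 80.2 kb after 4-OHT, and Hoxd 66.0 and 72.7 kb against 55.8 and 65.5 kb, without overlap in either. Hoxa had 77.1 and 84.1 kb against 69.3 and 80.1 kb and Hoxb 77.9 and 88.0 kb against 61.4 and 80.3 kb, and both overlapped. All 4 clusters were lower in both pairs, and the smallest p that the exact permutation test allows for 2 against 2 is 0.333. The exact test gave p = 0.333 for Hoxc and Hoxd and 0.667 for Hoxa and Hoxb, and 0.75 to 0.8 after adjustment over the 12 comparisons. Without 4-OHT replicate 1 the differences of the means shrank to -0.538 kb for Hoxa, -2.65 kb for Hoxb, -8.4 kb for Hoxc and -3.86 kb for Hoxd, and without 4-OHT replicate 2 they grew to -11.4, -21.5, -24.2 and -13.6 kb. Without control replicate 1 they were -9.44 kb for Hoxa and without control replicate 2 -2.46, -7.04 and -5.34 kb for Hoxa, Hoxb and Hoxd. Scaled to the list totals, 37 of 38 genes were lower in the mean, against 747 of 2210 windows, with a Hox median of -1.35 kb. As for H3K27me3, this scaling multiplies every window of a library by 1 factor and so restates the ratios of the lists. In pair 2, where the list ratio was 1.17, it lowers windows that are full in both libraries by construction. In 4-OHT libraries 95.5% and 94.6% of Suz12 bases in the clusters lay inside H3K27me3 of at least 2 libraries, and they filled 61.1% and 73.8% of it.

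Hox genes were called lower for Suz12 only in fits that left a single 4-OHT library. Without 4-OHT replicate 1 these were Hoxa9 and Hoxd12, with differences of -0.425 and -0.35 kb. Without 4-OHT replicate 2 they were Hoxa7, Hoxa9, Hoxb6 and Hoxd12, with differences of -1.725, -1.05, -0.925 and -1.375 kb. All of these had 10.0 kb in both control libraries, so their spread within controls was 0, and the lone 4-OHT sample is assumed to vary like the controls. Calls from these fits are therefore not read as results.

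H3K27ac was scarce in the clusters. A window of 7 of the 38 genes held any H3K27ac in any library, and 4 of 38 (Hoxb1, Hoxb3, Hoxc13 and Hoxd1) held it in both control libraries, against 47.0% of all genes. After 4-OHT, 4 of 38 (Hoxb1, Hoxb3, Hoxc6 and Hoxc13) held it in both libraries, against 47.5%. Over the 4 clusters H3K27ac covered 0.320% and 0.550% of bases in controls and 0.452% and 0.885% after 4-OHT, with ratios of 1.41 and 1.61 within pairs where the whole lists had 1.02 and 0.848. These spans stop at the 3′ end of Hoxb1 and so leave out most of the stretch described next; with 20 kb added at each end the difference of the Hoxb means went from 0.075 to -1.34 kb. No Hox gene passed limma (0 of the 7 tested, background 0%; 1 of 7 and 2299 of 11821 windows had an unadjusted p below 0.05). Of the 7 genes, 2 were lower in both pairs (15.8% of all windows) and in the mean (28.3%), and 2 were higher in both pairs (51.9%). The conditions did not overlap at 1 lower gene (12.5%) and 1 higher gene (39.8%).

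**Figure D4:**
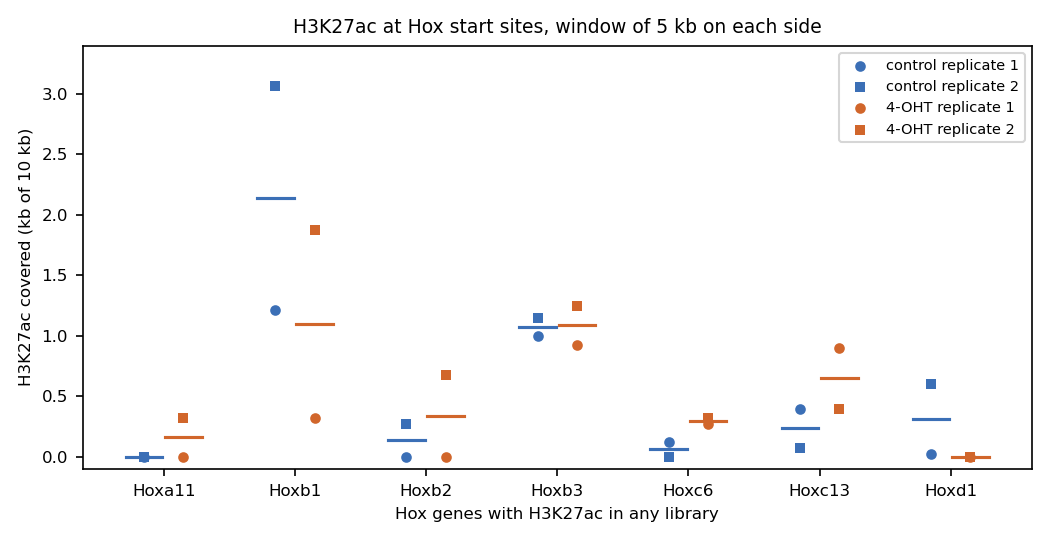
H3K27ac covered length (kb of the 10-kb window) at the 7 Hox genes with H3K27ac in any library; points are libraries and short bars are means of 2. Hoxb1 and Hoxd1 are lower after 4-OHT in both pairs, Hoxc6 and Hoxc13 higher in both pairs, and Hoxb3 stays between 0.925 and 1.25 kb.

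The widest H3K27ac stretch lay just 3′ of Hoxb1, at chr11:96229176-96232575, from the 3′ end of the gene into intergenic sequence. Enhancers in this 3′ flank are known to respond to retinoic acid. H3K27ac covered 1525 and 3400 bp of it in control replicates 1 and 2 and 325 and 1875 bp after 4-OHT. Within 5 kb of the Hoxb1 start site, all H3K27ac came to 1.22 and 3.07 kb against 0.325 and 1.88 kb, lower in both pairs with overlap of the conditions (difference -1.04 kb, SE 0.894 kb; limma, adjusted p = 0.529). The stretch carried no Suz12 in any library, and H3K27me3 covered 225 to 800 bp of it in controls and 50 to 950 bp after 4-OHT.

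Brg1-FLAG regions were clustered in the same stretch. FLAG replicates 1 and 2 covered 725 and 825 bp of it and replicate 3 none. Their regions overlapped in 3 places, and the longest overlaps, both intergenic, are printed because both replicates mark them. They are chr11:96230676-96230900, which begins 3610 bp after the Hoxb1 start site and held 2 CpG in 225 bases, and chr11:96232026-96232225, which begins 4960 bp after it and held 4 CpG in 200 bases. No H3K27me3 library covered the first, while the FLAG region around the second was covered in full or in part by H3K27me3 in 4 of 6 libraries. Capitals mark CpG.
first piece: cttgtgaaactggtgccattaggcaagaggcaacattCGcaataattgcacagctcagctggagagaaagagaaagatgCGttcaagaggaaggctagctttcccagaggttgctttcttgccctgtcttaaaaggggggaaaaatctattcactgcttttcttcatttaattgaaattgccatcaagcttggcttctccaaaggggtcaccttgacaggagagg
second piece: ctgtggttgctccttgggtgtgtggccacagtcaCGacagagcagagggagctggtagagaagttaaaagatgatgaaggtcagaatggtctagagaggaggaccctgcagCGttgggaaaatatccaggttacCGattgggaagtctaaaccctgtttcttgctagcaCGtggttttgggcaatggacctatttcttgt

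Retinoic acid receptors bind direct repeats of a half-site. The half-site AGGTCA, sought on both strands, occurred 4 times in the 3400 bases of the stretch, and 87.4% of equally long stretches before protein-coding start sites held it. A relaxed direct repeat with 2 bases between the half-sites (DR2) had 1 match, against 20.2% of those stretches, and one with 5 bases between (DR5) did not occur in these letters, against 18.9%. These shares show that single matches of this kind are common in stretches of this length.

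At Hoxb3 the H3K27ac region was the steadiest of the clusters. Its centre lay 1.98 kb upstream of the start site of the main transcript, inside the longer Hoxb3 transcript unit, and it covered 1.00 and 1.15 kb in controls and 0.925 and 1.25 kb after 4-OHT. In the stretch chr11:96203026-96203650 all 4 H3K27ac libraries covered all 625 bp and none of the 6 H3K27me3 libraries covered any. Suz12 covered 250 and 425 bp of that stretch in controls and 0 and 500 bp after 4-OHT. FLAG replicates 1 and 2 listed 25 and 300 bp about 0.680 kb upstream of the start site, beside the H3K27ac and under H3K27me3 in 5 of 6 libraries. The 300 bases at the centre of the stretch, chr11:96203188-96203487 (plus strand), overlap an exon of the processed transcript Gm11536 and held 25 CpG, and they are printed because this is the only H3K27me3 gap of at least 500 bp in the clusters with H3K27ac in all 4 libraries.
Hoxb3 stretch: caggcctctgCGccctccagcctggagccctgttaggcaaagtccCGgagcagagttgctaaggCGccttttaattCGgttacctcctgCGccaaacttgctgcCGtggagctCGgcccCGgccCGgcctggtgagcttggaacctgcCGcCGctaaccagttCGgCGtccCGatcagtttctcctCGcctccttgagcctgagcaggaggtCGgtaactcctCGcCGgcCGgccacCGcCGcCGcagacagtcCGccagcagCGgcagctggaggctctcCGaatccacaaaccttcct

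**Figure D5:**
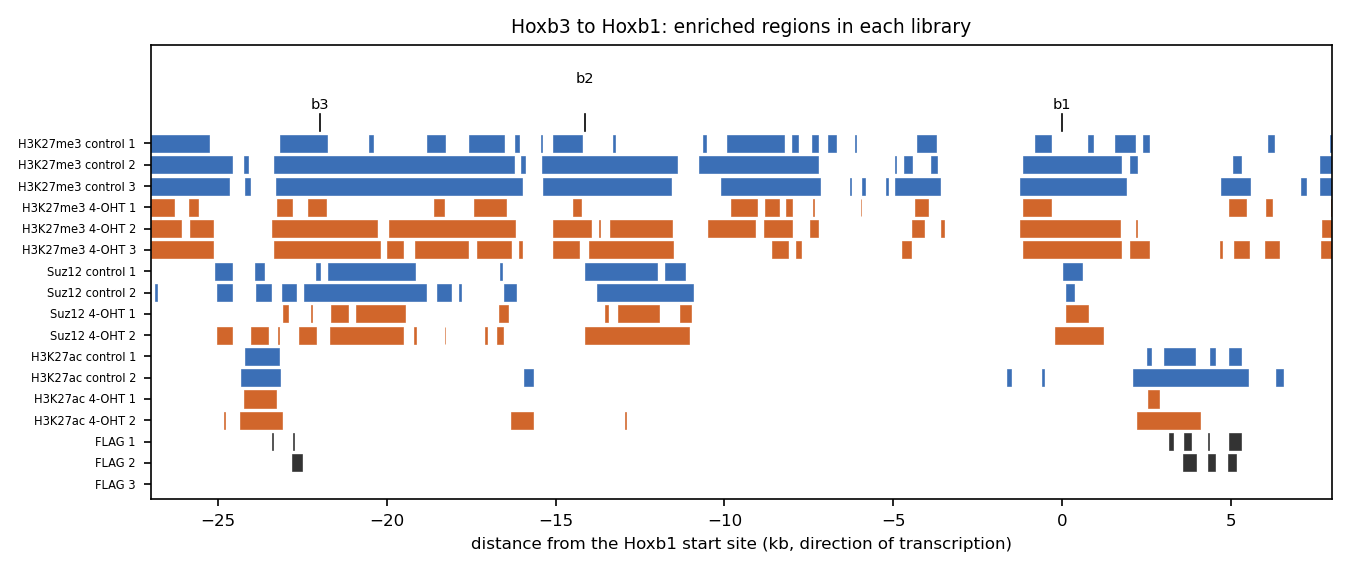
Enriched regions from Hoxb3 to the 3′ flank of Hoxb1, with distance from the Hoxb1 start site in kb on the x axis and 1 row per library (control blue, 4-OHT orange, FLAG black). H3K27ac lies in the H3K27me3 gap at Hoxb3 in all 4 libraries, and the H3K27ac and FLAG regions 3′ of Hoxb1 lie together where Suz12 is missing.

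Hoxd1 also had H3K27ac in both control libraries. A stretch 2.77 kb upstream of its start site had 0.025 and 0.6 kb in controls and 0 and 0 kb after 4-OHT (difference -0.313 kb, SE 0.217 kb; limma, adjusted p = 0.469). The control value of replicate 1 was a single 25-bp step of the region calling, so the difference rests on replicate 2. No Suz12 library covered it, H3K27me3 was listed there in 4-OHT replicates 2 and 3 only (25 and 125 bp), and FLAG replicate 2 listed 25 bp in it. The 300 bases around that FLAG region, chr2:74598463-74598762 (plus strand, in an intron of the processed transcript 6720416L17Rik), held 0 CpG and end in a run of TC repeats, unlike the CpG-dense stretch at Hoxb3.
Hoxd1 upstream: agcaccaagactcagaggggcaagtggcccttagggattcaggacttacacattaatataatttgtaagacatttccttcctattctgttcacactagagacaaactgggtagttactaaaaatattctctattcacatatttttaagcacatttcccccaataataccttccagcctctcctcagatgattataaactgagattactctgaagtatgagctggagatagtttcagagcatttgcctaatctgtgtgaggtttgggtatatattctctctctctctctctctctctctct

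In Hoxc the acetylated bases were more after 4-OHT. The cluster had 0.525 and 0.075 kb in controls and 1.27 and 1.75 kb after 4-OHT, without overlap and higher in both pairs (exact permutation test, p = 0.333, the smallest it can give; 0.75 adjusted). At Hoxc13, H3K27ac over the start site covered 0.4 and 0.075 kb in controls and 0.900 and 0.4 kb after 4-OHT (adjusted p = 0.392 by limma), higher in both pairs but with the ranges touching. All of these bases also lay under Suz12 in all 4 libraries, and H3K27me3 covered 725 to 850 of the 900 bp in replicates 2 and 3 of both conditions and 0 bp in replicate 1 of both. At Hoxc6, a stretch 1.67 kb upstream of the start site had 0.125 and 0 kb in controls and 0.275 and 0.325 kb after 4-OHT (difference 0.238 kb, SE 0.0684 kb; limma, adjusted p = 0.222). In that 325-bp stretch Suz12 covered all 325 bp in both controls and 0 and 75 bp after 4-OHT, and H3K27me3 covered 200 to 325 bp in every library.

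The bases at Hoxc6 acetylated in both 4-OHT libraries, chr15:102838076-102838350, lie inside the Hoxc6 and Gm20398 transcript units and outside their exons, and held 0 CpG in 275 bases. They are shown because the Suz12 and H3K27ac calls differ there in opposite directions between conditions.
Hoxc6 upstream: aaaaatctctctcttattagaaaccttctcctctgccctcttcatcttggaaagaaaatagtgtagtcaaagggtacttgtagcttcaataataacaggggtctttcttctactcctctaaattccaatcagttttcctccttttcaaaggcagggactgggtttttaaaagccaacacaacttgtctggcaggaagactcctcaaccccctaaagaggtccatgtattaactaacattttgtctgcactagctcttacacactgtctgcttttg
Between the start sites of Hoxc6 and Hoxc8, inside the annotated Hoxc6 gene, a pair of stretches carried H3K27ac after 4-OHT only. One, 8.86 kb upstream of Hoxc6, had 0 and 0 bp in controls and 100 and 550 bp after 4-OHT, and the other, 8.71 kb downstream of the Hoxc8 start site, had 475 bp in 4-OHT replicate 2 alone. H3K27me3 covered 300 and 375 bp of the second in control replicates 2 and 3 and none after 4-OHT. Other H3K27ac was at Hoxb2, 1.87 kb upstream of the start site, with 0 and 275 bp in controls and 0 and 650 bp after 4-OHT, and at Hoxa11, with 325 bp in 4-OHT replicate 2 alone. Single libraries added 125 and 50 bp upstream of Hoxb1 in control replicate 2 and 25 bp at Hoxb2 in 4-OHT replicate 2.

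Of the H3K27ac bases in the clusters, 56.5% and 86.0% in control replicates 1 and 2 lay outside H3K27me3 of at least 2 control libraries, and 47.5% and 65.7% after 4-OHT. Without H3K27me3 replicate 2 or 3 of the same condition these means of 71.2% and 56.6% moved to 94.1% or more in controls and to 90.8% after 4-OHT, since the narrow regions of replicate 1 then decide what counts as methylated. The marks come from different libraries of mixed cells, and whether they share a nucleosome cannot be told from such lists.

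Brg1-FLAG regions were about as frequent at Hox genes as at all genes. A window of 5 of the 38 genes held one in at least 1 replicate, against 13.8% of all genes, and of 2 (Hoxb1 and Hoxb3) in at least 2 replicates, against 3.97%, and none in all 3 replicates, against 0.139%. Besides Hoxb1, Hoxb3 and Hoxd1, Hoxa4 had 125 bp in FLAG replicate 1 and Hoxb6 25 bp in FLAG replicate 1. At Hoxa4 and Hoxb6 the FLAG bases were covered by Suz12 in all 4 libraries. Hoxb6 had 6.23, 10.0 and 10.0 kb of H3K27me3 in controls and 4.06, 10.0 and 9.68 kb after 4-OHT, and 10.0 and 10.0 kb of Suz12 against 9.08 and 10.0 kb. For Hoxa4, H3K27me3 after 4-OHT was 7.75, 9.43 and 9.30 kb.

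After 4-OHT Hoxb1 and Hoxd1 were again the genes with the least H3K27me3. Hoxb1 had 1.32, 3.48 and 3.8 kb of H3K27me3 in 4-OHT replicates 1, 2 and 3, the lowest of the 38 in each library, as in control replicates 1, 2 and 3. Hoxb3 had 2.65, 7.68 and 7.38 kb, Hoxa2 5.03, 9.76 and 9.76 kb and Hoxc4 5.53, 8.53 and 6.73 kb. The 5′ genes had 5.63, 8.88 and 8.08 kb at Hoxa13, 5.55, 9.65 and 9.35 kb at Hoxb13, 7.18, 9.35 and 9.18 kb at Hoxc13, and 6.93, 9.63 and 9.40 kb at Hoxd13. By paralog group, the median difference of H3K27me3 was -0.792 kb over the 11 genes of groups 1 to 4, -1.08 kb over the 11 of groups 5 to 8 and -0.453 kb over the 16 of groups 9 to 13, where more windows sit at the ceiling. For Suz12 the same medians were -0.825, -0.762 and -0.856 kb.

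PRC2 in mammals is recruited largely to CpG-dense sequence, so the 250 bases before each start site were read from the mm9 genome. The 38 Hox promoters held 1 to 41 CpG with a median of 12.5, against a median of 9 over 22214 protein-coding promoters. The number of CpG showed little relation to covered length among the Hox genes, with Spearman's rho of 0.128 for control H3K27me3 and -0.074 for control Suz12 across 38 genes, as a description. CpG were counted in 250 bases, whereas covered length comes from 10-kb windows that partly overlap and often lie near the ceiling. Whether CpG density plays a part in recruitment here was not tested. Hoxb1, with the least Suz12, held 7 CpG in chr11:96226816-96227065. Hoxd12, with 10.0 kb of Suz12 in both control libraries, held 9 in chr2:74512736-74512985. Hoxa7, Hoxa9 and Hoxb6 also had 10.0 kb in both and held 23, 3 and 8. Hoxc13, where H3K27ac, Suz12 and H3K27me3 were all listed over the start site, held 15 in chr15:102751284-102751533. The 3 are printed because they span the lowest, the highest and the mixed state in these data, on the plus strand with CpG in capitals.
Hoxb1 promoter: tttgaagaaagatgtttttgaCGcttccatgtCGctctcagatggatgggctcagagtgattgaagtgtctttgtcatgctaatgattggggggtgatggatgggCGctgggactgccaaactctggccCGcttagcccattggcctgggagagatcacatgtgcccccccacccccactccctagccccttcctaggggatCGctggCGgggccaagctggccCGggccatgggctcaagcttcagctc
Hoxd12 promoter: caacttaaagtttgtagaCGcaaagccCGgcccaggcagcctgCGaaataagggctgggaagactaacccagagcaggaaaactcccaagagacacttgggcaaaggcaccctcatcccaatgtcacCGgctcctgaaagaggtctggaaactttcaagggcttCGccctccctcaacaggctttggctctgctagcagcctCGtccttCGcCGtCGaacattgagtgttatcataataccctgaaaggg
Hoxc13 promoter: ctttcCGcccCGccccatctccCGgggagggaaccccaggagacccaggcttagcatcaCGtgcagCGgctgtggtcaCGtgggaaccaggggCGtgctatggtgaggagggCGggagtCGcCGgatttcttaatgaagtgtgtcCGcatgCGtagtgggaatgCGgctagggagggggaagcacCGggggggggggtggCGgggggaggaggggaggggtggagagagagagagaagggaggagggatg
The Hoxb1 promoter also held the motif TGATNNAT, a form of the joint PBX and HOX site through which Hoxb1 is known to act on its own promoter, sought on both strands. It occurred in 3 of 38 Hox promoters (7.89%) and in 6.99% of all promoters.

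The Hox cofactors of the Pbx, Meis and Pknox families carried H3K27ac at 9 of 9 start sites in both control libraries, and H3K27me3 and Suz12 at 3 of 9 in every control library. None of the 9 was called for any mark. Among 8 regulators of Hox transcription (Cdx and retinoic acid receptor genes, Cyp26a1 and Gdf11), 5 had H3K27me3, 3 had Suz12 and 3 had H3K27ac in every control library, and none was called. Cdx2, a homeobox gene that activates posterior Hox genes, had 5.98, 10.0 and 10.0 kb of H3K27me3 and 6.68 and 7.1 kb of Suz12 in controls, 4.43, 9.7 and 9.7 kb and 5.76 and 6.48 kb after 4-OHT, and no H3K27ac. Gdf11, a TGF-beta family ligand that shifts Hox domains in the trunk, was the one of them with separate conditions for H3K27me3, at 2.40, 1.98 and 1.3 kb in controls and 1.10, 1.23 and 0.7 kb after 4-OHT (limma, adjusted p = 0.685). Such a lower value without overlap was seen at 11.8% of the windows tested.

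Genes next to the clusters were mostly acetylated. Of 12 genes next to the clusters, 9 had H3K27ac in both control libraries, and 3 had H3K27me3 and 2 had Suz12 in every control library. None was called for any mark. Evx2, a homeobox gene beside Hoxd13, had 6.05, 10.0 and 10.0 kb of H3K27me3 in controls, 4.40, 9.78 and 9.25 kb after 4-OHT and no H3K27ac. Of the marker genes, Sox2 alone had H3K27me3 conditions that did not overlap, with 2.88, 5.80 and 3.25 kb in controls and 0.575, 2.05 and 0.425 kb after 4-OHT (limma, adjusted p = 0.607). Over all tested windows 11.8% were lower without overlap. The 6 mesoderm markers had a median H3K27ac difference of -1.08 kb over the 5 tested, all lower in both pairs (15.8% of all windows). Their median Suz12 difference was 0.575 kb over the 5 tested, all higher in both pairs (40% of all windows). In both control libraries Suz12 was 0 kb at T and Mixl1, against 0.725 and 1.28 kb at Pdgfra. No marker was called for any mark, and the part of these differences in the Hox values was not tested. In bulk cultures, fewer cells with a mark and less of it in each cell cannot be told apart.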

How the data were processed

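ChIP-seq of H3K27me3, Suz12, H3K27ac and Brg1-FLAG was analysed as 17 lists of enriched regions, with edges at steps of 25 bp. According to the study's methods, the authors aligned reads to mm9 with Bowtie and called regions in each replicate by a Poissonian model against input, at p below 1e-12, or for FLAG below 1e-06 and at least 2-fold over input. The version of Bowtie is not given in the sources used here. The deposited regions have no score or count, and the covered length computed from them moves with each library's depth, which is unknown. The 11 inputs were not analysed here.

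Covered length was computed per 10-kb window (5 kb on each side) for each protein-coding start site and per cluster, from the outer ends of its listed genes. Windows covered in at least 1 library of a mark were tested across all genes with limma 3.58.1 (R 4.3.3; trended variance, Benjamini-Hochberg adjustment, threshold 0.05), and clusters by exact two-sided permutation tests (SciPy 1.17.1). The limma fit was tested on simulated windows with independent noise, smaller than the spread between H3K27me3 libraries at the Hox genes. These windows had neither a replicate effect nor a ceiling, so that test does not show how the fit performs on these data. Same-numbered H3K27me3 libraries deviated together (correlations 0.912, 0.826 and 0.772 over 4058 windows), so the replicate number was also fitted as a block; the labels do not say what a number stands for. Sequences were read from the mm9 genome. Alternatives varied the window, scaling, joining of regions, minimum width and libraries left out.

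The Hox members and all gene lists were chosen with earlier results of these data known. Named genes were the first and last listed gene of each cluster, genes with H3K27ac in every library of a condition, genes with FLAG, the largest H3K27me3 difference in each cluster and any gene called. Hoxa7, Hoxa9, Hoxa11, Hoxb9, Hoxd4 and Hoxd12, and the genes named from other lists, were chosen after their values were seen.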

Additional observations from a re-analysis of the deposited data

How the results depend on the processing

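Of the values recomputed under other settings, 268 were classed as the same, 17 as reversed and 9 as moved. The first class includes counts of called genes that stayed at 0. It also includes differences that went to 0. Examples are the Suz12 member median in a window of 1 kb on each side and the Hoxd difference of H3K27ac with regions of at least 500 bp. Scaling H3K27me3 to the list totals reversed the cluster differences, to 21.1 kb for Hoxa, 19.7 kb for Hoxb, 23.5 kb for Hoxc and 19.0 kb for Hoxd, and the median over the 38 genes to 1.93 kb. Leaving out 1 library gave H3K27me3 cluster differences of -17.2 to 7.55 kb for Hoxa, -26.6 to 2.91 kb for Hoxb, -19.8 to 2.37 kb for Hoxc and -15.9 to 5.28 kb for Hoxd, and member medians of -1.76 to 0.702 kb, positive without 4-OHT replicate 1. For H3K27ac over Hoxb the difference was -0.163 kb with regions joined across 1 kb, -1.34 kb with 20 kb added at each end and -0.573 to 0.723 kb with 1 library left out, and the H3K27ac member median ran from -0.144 to 0.175 kb with 1 library left out and was 0.238 kb with regions joined. For Suz12, Hox genes were called only in fits that left a single 4-OHT library. Hox genes with FLAG numbered 3 in a window of 2.5 kb on each side, 2 when at least 2 replicates were required and 3 to 5 with 1 replicate left out. The gap difference ran from -17.2 to 66.8 kb, and the H3K27ac bases outside H3K27me3 from 56.5% to 95% in controls and 47.5% to 90.8% after 4-OHT with 1 library left out (61.2% and 44.2% when H3K27me3 of any library counted). The cause of these changes was not tested.

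With the replicate number as a block, limma called 0 Hox genes for H3K27me3, Suz12 and H3K27ac, and the H3K27me3 and Suz12 cluster differences had sign-flip p-values of 0.25 and 0.5, the smallest that 3 and 2 pairs allow (exact tests). The block changed no call among the Hox genes, though more of them then had an unadjusted limma p below 0.05 for H3K27me3 and Suz12. Same-numbered Suz12 and H3K27ac libraries also deviated together, less strongly than those of H3K27me3 (correlations of 0.507 and 0.443 with 2 pairs). What they share beyond the number is not stated. A fit without the filter on empty windows was not possible for H3K27me3 and Suz12, because most of those windows hold only 0.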
